A study of Homo sapiens with 6 samples.

Results

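Levels of 33 genes of homologous recombination and the Fanconi anaemia pathway were examined by RNA sequencing in Huh7 cells, a human hepatocellular carcinoma line. The genes were chosen by name, and all 33 were found among the 50868 genes of the deposited table, each under a single entry. Cells of wild-type genotype had received the cell-permeating peptide P-T3H2 or the control peptide P-T3H2-2A, each at 20 µM for 5 days, with 3 libraries per group. No untreated cells were used here, so both groups share exposure to a peptide. The P-T3H2-2A libraries are called controls below. Nothing in the labels ties replicates to separate cultures, so p-values measure only the spread between these libraries, which may be technical.

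Homologous recombination repairs a double-strand break by copying an intact sister chromatid. The break is sensed and trimmed by the MRE11-RAD50-NBN complex, RBBP8, EXO1 and BLM. BRCA1, BARD1, PALB2 and BRCA2 then prepare the exposed strand for pairing with the sister chromatid, with help from the XRCC2 and XRCC3 group and from RAD54-type motor proteins. The Fanconi core complex, with the ubiquitin-conjugating enzyme UBE2T, marks the FANCD2-FANCI pair at DNA crosslinks, and the kinases ATM and ATR pass the damage signal to CHEK2 and CHEK1. Many of these genes are transcribed mainly in dividing cells, as S phase approaches.

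Libraries held 17434442 to 21374732 gene counts, and the members had between 49 and 2941 counts in a library. Of 12 hepatocyte markers, all passed the filter on low counts, with summed levels of 33730 to 36560 CPM (counts scaled to library size) over the 6 libraries. Single markers moved within that sum: in the 5-library fit 4 fell and 2 rose, or 33.3% and 16.7%, beside 22.8% and 22.6% of all genes. FGB, for fibrinogen beta, fell 3.97-fold. HNF4A, the factor of the study's title, fell by 0.69 on the log2 scale (edgeR adjusted p = 0.000137). With all libraries neither passed in edgeR (adjusted p = 0.275 for each). In DESeq2 with all libraries FGB passed (adjusted p = 0.0362) and HNF4A did not (adjusted p = 0.198). The library labelled control replicate 3 stood apart from its group: of the 7390 genes called without it, 93.2% had a value there nearer to the P-T3H2 mean than to the mean of control replicates 1 and 2. The chi-square per gene between libraries was 13.5 to 14.2 from it to the P-T3H2 libraries, 87.9 and 95.8 to control replicates 1 and 2, and 12.6 to 15.1 among the P-T3H2 libraries. Whether its label is right was not tested, and both fits depend on it. Results are therefore given with all 6 libraries and in a 5-library fit that leaves out the library labelled control replicate 3. That choice was made on these same data, so its calls carry no independent weight. Of 14 markers of blood, vessel and connective tissue cells, 8 passed the filter. In the 5-library fit 2 of the 8 fell, or 25%, and 3 rose, or 37.5%, beside 22.8% and 22.6% of all genes. The summed level of the 14 markers was 172 and 178 CPM in control replicates 1 and 2 and 626 to 740 CPM in the other libraries. Most of it was LYZ, for lysozyme, at 126.4 and 133.9 against 577 to 684 CPM, while MS4A1 and ACTA2 were at 0 in every library, and the part of these markers in the results below was not tested.

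Most recombination and Fanconi genes were lower with P-T3H2, by modest amounts, and with all 6 libraries none passed the test. The median log2 fold change of the 33 members was -0.31, beside -0.0039 over all 15946 genes tested, and 28 members had a negative value. In edgeR 0 of 33 passed at an adjusted p under 0.05, where 1 gene in all, or 0.00627%, did. DESeq2 also called 0 members, against 0.914% of genes, with adjusted p between 0.0825 and 0.785. At an unadjusted p under 0.05 in edgeR, 15 members were lower and 0 higher, beside 11.4% lower and 6.58% higher over all genes.

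In the 5-library fit 22 of 33 members fell, 1 rose and 10 did not pass, with a median log2 fold change of -0.42, beside 0.0028 over all 16281 genes tested. Of all genes, 22.8% fell and 22.6% rose in that fit, against 66.7% and 3.03% of the members. The falls ran from 1.19-fold for RAD54L to 2.13-fold for CHEK2, and 12 members fell at least 1.5-fold. Of the 22 genes that fell, 21 had a value in the library labelled control replicate 3 that lay nearer to P-T3H2. BRCA2 was the exception. Over all genes called in that fit, in either direction, the share was 93.2%. For 13 of the 22 this value was inside the range of the P-T3H2 libraries, which was not counted over all genes.

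**Figure D1:**
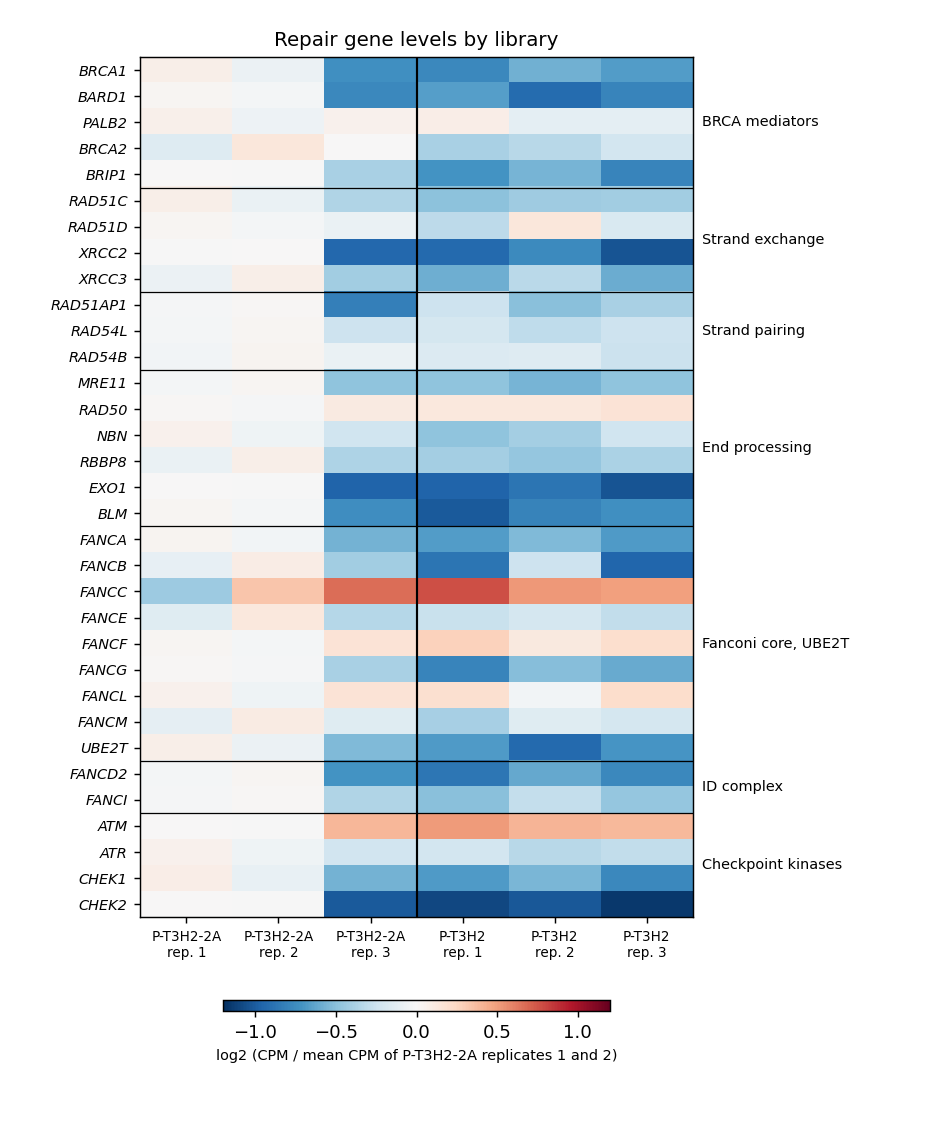
Heat map of the 33 genes (rows, grouped by role) in the 6 libraries (columns), coloured by the log2 ratio of each library's CPM to the mean of control replicates 1 and 2. Most rows are blue in the 3 P-T3H2 libraries and in the library labelled control replicate 3, while ATM is red in the same 4 columns.

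The groups as labelled did not overlap for 10 members. Lower in every P-T3H2 library than in any P-T3H2-2A library were 9 members, beside 11.6% of all genes: BRCA2, BRIP1, RAD51C, RAD54B, NBN, RBBP8, FANCG, UBE2T and CHEK2. RAD50 was higher in this sense, beside 11.8% of genes. The 9 became 18 without P-T3H2 replicate 2 and 26 without the library labelled control replicate 3. Groups with fewer libraries separate more easily, and the share of all genes was not counted in these runs. The larger counts therefore cannot be read as particular to the members.

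Among the mediators, which prepare the broken end for strand exchange, BRCA1, BARD1, BRIP1 and BRCA2 fell in the 5-library fit and PALB2 did not pass. BRCA1, a ubiquitin ligase subunit mutated in hereditary breast cancer, stood at 38.5, 34.9 and 22.1 CPM in control replicates 1, 2 and 3 and at 21.5, 24.6 and 23.1 CPM in P-T3H2 replicates 1, 2 and 3. Control replicates 1 and 2 were thus above the other 4 libraries, and the groups as labelled overlapped. Its log2 fold change was -0.67 in the 5-library fit (edgeR adjusted p = 0.00105, SE 0.0897) and -0.46 with all libraries (SE 0.210, adjusted p = 0.279). BARD1, the partner that forms the ligase with BRCA1, held 24.4, 23.7 and 14.04 CPM in the controls and 15.2, 12.7 and 13.9 CPM with P-T3H2, in the same split. It fell by 0.79 (log2) in the 5-library fit (SE 0.0992, adjusted p = 0.000788), against -0.57 with all libraries. The helicase gene BRIP1, also known as FANCJ, fell by 0.69 in that fit (SE 0.0930, adjusted p = 0.0011).

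BRCA2, which acts on the single-stranded DNA at the break, behaved otherwise in the library labelled control replicate 3. It stood at 60.9, 74.4 and 68.0 CPM in the controls and at 51.8, 53.7 and 58.1 CPM with P-T3H2. All 3 control libraries lay above all 3 P-T3H2 libraries, and the log2 fold change was -0.31 in either fit (SE 0.104 and adjusted p = 0.275 with all libraries, SE 0.0953 and adjusted p = 0.033 in the 5-library fit). The 5-library call was lost without control replicate 2 (-0.17, adjusted p = 0.239), P-T3H2 replicate 1 (adjusted p = 0.0999) or P-T3H2 replicate 2 (adjusted p = 0.0958), and with a minimum mean of 5 CPM (adjusted p = 0.0525). PALB2, the bridge between BRCA1 and BRCA2, held 27.9, 25.8 and 27.8 CPM in the controls and 28.5, 24.8 and 24.8 CPM with P-T3H2, ranges that overlap. Its log2 fold change was -0.05 in the 5-library fit (SE 0.0944, adjusted p = 0.72).

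Of the 4 genes XRCC2, XRCC3, RAD51C and RAD51D, whose products act together in strand exchange, all but RAD51D fell in the 5-library fit. XRCC2 stood at 49.0, 49.2 and 25.5 CPM in the controls and at 25.7, 28.9 and 23.9 CPM with P-T3H2, so control replicates 1 and 2 held nearly the same level and the other libraries a lower one. It fell by 0.91 on the log2 scale (SE 0.0924, adjusted p = 0.000331), against -0.65 with all libraries (SE 0.258, adjusted p = 0.275). RAD51C held 26.6, 23.9 and 19.7 CPM against 17.98, 18.8 and 18.9 CPM, without overlap between the labelled groups, and fell by 0.44 in the 5-library fit (SE 0.0854, adjusted p = 0.00508). XRCC3, the partner of RAD51C, fell by 0.50 in that fit, and lost its call without control replicate 2 (-0.43, adjusted p = 0.0564). RAD51D, a partner of XRCC2, was at -0.11 (SE 0.137, adjusted p = 0.54), with P-T3H2 libraries from 18.6 to 25.4 CPM on both sides of the controls.

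Of the 3 genes of strand pairing, RAD51AP1 and RAD54L fell in the 5-library fit and RAD54B did not pass. RAD51AP1, which stimulates strand pairing, stood at 37.5, 38.3 and 21.5 CPM in the controls and at 31.9, 26.7 and 28.9 CPM with P-T3H2. The library labelled control replicate 3 was here the lowest of all 6, below every P-T3H2 library. RAD51AP1 fell by 0.38 without that library (SE 0.0895, adjusted p = 0.0122), and its call was lost without control replicate 2 (-0.37, adjusted p = 0.0589). RAD54L, a motor protein of strand invasion, held 47.1, 48.9 and 40.3 CPM against 41.4, 38.9 and 40.3 CPM and fell by 0.26 (SE 0.0643, adjusted p = 0.0154), a call lost without control replicate 1 (adjusted p = 0.0548) or replicate 2 (adjusted p = 0.102). RAD54B, its relative, stood at 20.6, 21.5 and 20.0 CPM against 18.9, 19.0 and 17.7 CPM. These groups do not overlap, but neither fit passed (-0.16 and adjusted p = 0.32 with all libraries, -0.19 and adjusted p = 0.101 in the 5-library fit).

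Among the 6 genes of end processing, 5 fell in the 5-library fit and RAD50 did not pass. EXO1, the exonuclease of long-range resection, stood at 32.3, 32.3 and 16.6 CPM in the controls and at 16.6, 17.6 and 15.7 CPM with P-T3H2. Control replicates 1 and 2 stood about 1.95-fold above P-T3H2 in the 5-library fit (log2 fold change -0.96, SE 0.0818, adjusted p = 0.00016), and with all libraries the value was -0.70 (SE 0.259, adjusted p = 0.275). BLM, the helicase mutated in Bloom syndrome, held 41.6, 40.1 and 24.3 CPM against 20.3, 23.4 and 24.5 CPM, with overlap through the library labelled control replicate 3. It fell by 0.85 in the 5-library fit (SE 0.0946, adjusted p = 0.000485).

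The 3 genes of the MRE11-RAD50-NBN complex, which acts as 1 unit, gave different calls: MRE11 and NBN fell in the 5-library fit and RAD50 did not pass. MRE11, the nuclease subunit, held 40.8, 41.9 and 29.6 CPM in the controls and 29.6, 28.1 and 29.6 CPM with P-T3H2, and fell by 0.51 in the 5-library fit (adjusted p = 0.00101). NBN, the adaptor that recruits ATM, fell by 0.38 (adjusted p = 0.0141), a call lost without control replicate 1 (-0.33, adjusted p = 0.0804). RAD50, the subunit that tethers DNA ends, stood at 92.1, 89.8 and 98.1 CPM in the controls and at 99.3, 99.2 and 102.2 CPM with P-T3H2, all P-T3H2 libraries above all controls. Its value was 0.14 in the 5-library fit (SE 0.0503, adjusted p = 0.0592). The differences between the 3 genes were not tested. RBBP8, or CtIP, which starts resection with MRE11, fell by 0.42 (adjusted p = 0.00294).

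**Figure D2:**
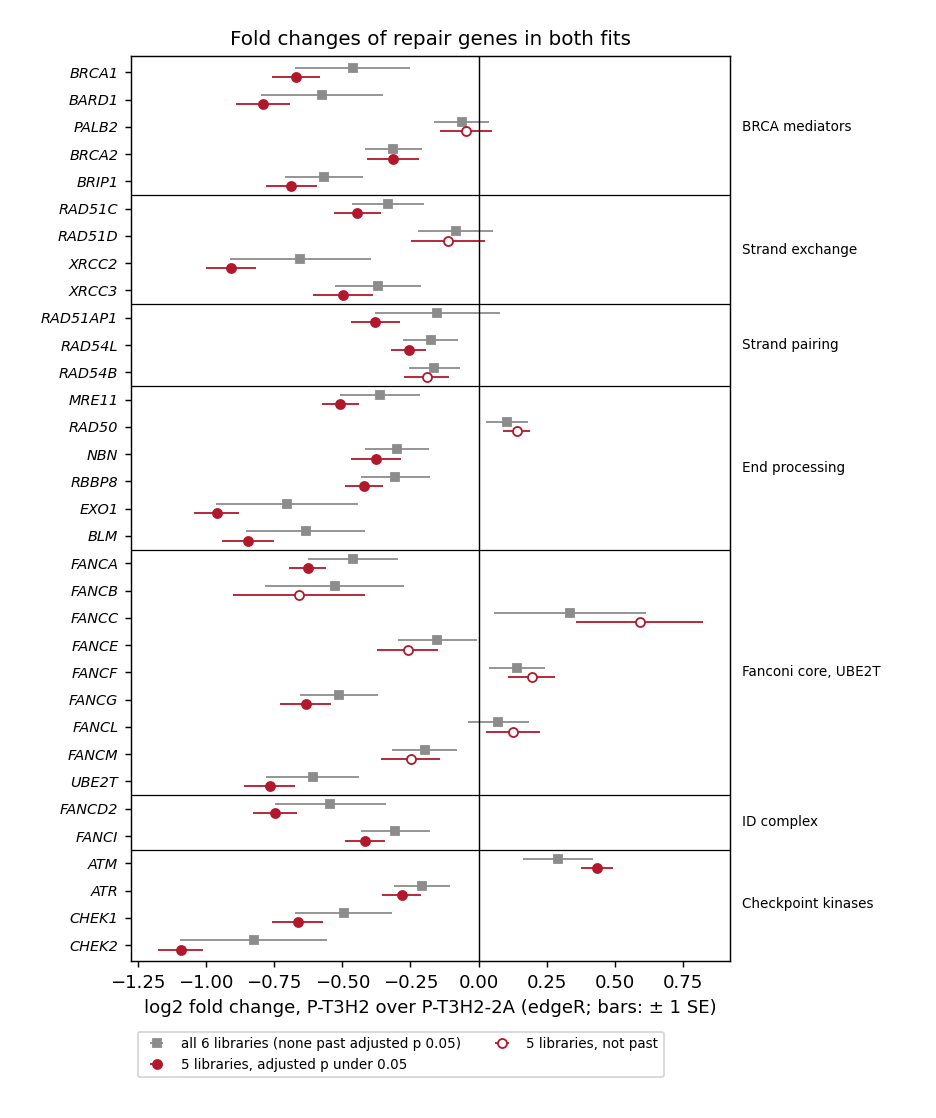
Log2 fold change of P-T3H2 over P-T3H2-2A for each of the 33 genes (points, edgeR) with 1 standard error to each side, with all 6 libraries (grey squares) and in the 5-library fit (red circles, filled where the adjusted p is under 0.05). CHEK2 lies farthest to the left at -1.09, and ATM is the only filled circle to the right of 0, at 0.43.

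Of the 9 genes of the Fanconi core complex with UBE2T, 3 fell in the 5-library fit, or 33.3% beside 22.8% of all genes, 0 rose and 6 did not pass. UBE2T stood at 65.9, 60.0 and 43.6 CPM in the controls and at 39.4, 33.1 and 38.6 CPM with P-T3H2, with every control above every P-T3H2 library. It fell by 0.77 in the 5-library fit (SE 0.0930, adjusted p = 0.000682), against -0.61 with all libraries (SE 0.170, adjusted p = 0.275). FANCA, the core subunit most often mutated in Fanconi anaemia, held 82.8, 79.5 and 54.9 CPM against 50.9, 56.1 and 50.8 CPM, with the library labelled control replicate 3 among the P-T3H2 libraries. It fell by 0.63 in the 5-library fit (SE 0.0682, adjusted p = 0.00043). FANCG, which binds FANCA within the core, fell by 0.63 as well (adjusted p = 0.00159).

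The remaining core genes did not pass in either fit. FANCL, the ubiquitin ligase subunit that works with UBE2T, was at 0.13, FANCF at 0.20, FANCE at -0.26 and the DNA translocase gene FANCM at -0.25 (log2) in the 5-library fit. FANCB and FANCC were the members with the fewest counts, both under 10 CPM in every library, and had the largest standard errors. FANCC was at 0.59 (SE 0.232, adjusted p = 0.0769), with 3.53 and 5.99 CPM in control replicates 1 and 2, and passed without control replicate 2 (1.03, adjusted p = 0.0128). FANCB was at -0.66 (SE 0.243, adjusted p = 0.0636) and passed without P-T3H2 replicate 2 (-0.91, adjusted p = 0.0105).

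FANCD2 and FANCI, the clamp that the core complex ubiquitinates, both fell in the 5-library fit. FANCD2 stood at 132.7, 137.7 and 82.4 CPM in the controls and at 74.2, 88.6 and 79.1 CPM with P-T3H2. FANCI stood at 124.9, 126.8 and 97.7 CPM in the controls and at 88.7, 102.9 and 91.2 CPM with P-T3H2. For both genes control replicates 1 and 2 were above all other libraries and the labelled groups overlapped. FANCD2 fell by 0.75 (SE 0.0797, adjusted p = 0.000398) and FANCI by 0.42 (log2 fold change -0.42, SE 0.0735, adjusted p = 0.00345). With all libraries the values were -0.54 and -0.30, each with an adjusted p = 0.275.

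The 4 checkpoint kinases held the largest fall and the only rise. CHEK2, the effector kinase that ATM switches on at double-strand breaks, stood at 28.6, 28.6 and 14.2 CPM in the controls and at 13.4, 14.1 and 12.8 CPM with P-T3H2. Control replicates 1 and 2 had about 2.13 times the P-T3H2 level in the fit, and the library labelled control replicate 3 lay just above the highest P-T3H2 library. CHEK2 fell by 1.09 (log2) without that library (SE 0.0828, adjusted p = 0.000108) and was at -0.82 with all libraries (SE 0.270, adjusted p = 0.275).

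ATM, the kinase upstream of CHEK2, went the other way. It held 96.6, 95.9 and 126.7 CPM in the controls and 137.0, 127.5 and 126.0 CPM with P-T3H2, so that control replicates 1 and 2 were the lowest of the 6. It rose by 0.43 in the 5-library fit (adjusted p = 0.000999, SE 0.0575), and was at 0.29 with all libraries (SE 0.129, adjusted p = 0.276). NPAT, which overlaps ATM on the opposite strand, was at -0.03 in the 5-library fit (adjusted p = 0.857).

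ATR, the kinase of stalled replication forks, stood at 47.7, 44.2 and 39.1 CPM in the controls and at 39.5, 36.4 and 37.5 CPM with P-T3H2. It fell by 0.28 in the 5-library fit (SE 0.0726, adjusted p = 0.0172), a call lost without control replicate 1 (-0.23, adjusted p = 0.119) or P-T3H2 replicate 3 (adjusted p = 0.0518). CHEK1, the effector of ATR, held 51.7, 46.1 and 32.9 CPM against 30.6, 33.4 and 28.7 CPM. It fell by 0.66 (SE 0.0921, adjusted p = 0.00122), with the library labelled control replicate 3 inside the P-T3H2 range.

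Per length, the members spanned a wide range of the authors' deposited FPKM, which scales a count to gene length and library size. UBE2T was the most abundant, at a mean of 45.7 FPKM in control replicates 1 and 2 and 27.0 FPKM with P-T3H2. FANCD2, FANCI, RAD54L and RAD50 followed at 12.2, 10.5, 8.56 and 7.91 FPKM in control replicates 1 and 2. With P-T3H2 their levels were 7.32, 7.92, 7.21 and 8.77 FPKM, so RAD50 moved from rank 5 to rank 2 and FANCD2 from rank 2 to rank 4. ATM moved from rank 24 of 33, at 2.95 FPKM, to rank 11, at 4.01 FPKM, and CHEK2 from rank 19, at 3.95 FPKM, to rank 25, at 1.86 FPKM. BRCA1 was among the least abundant per length, at 1.51 FPKM and rank 30, and FANCC was last at 0.402 FPKM. Neighbouring ranks such as CHEK2 and CHEK1, at 3.95 and 3.94 FPKM in control replicates 1 and 2, did not differ beyond their spread.

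**Figure D3:**
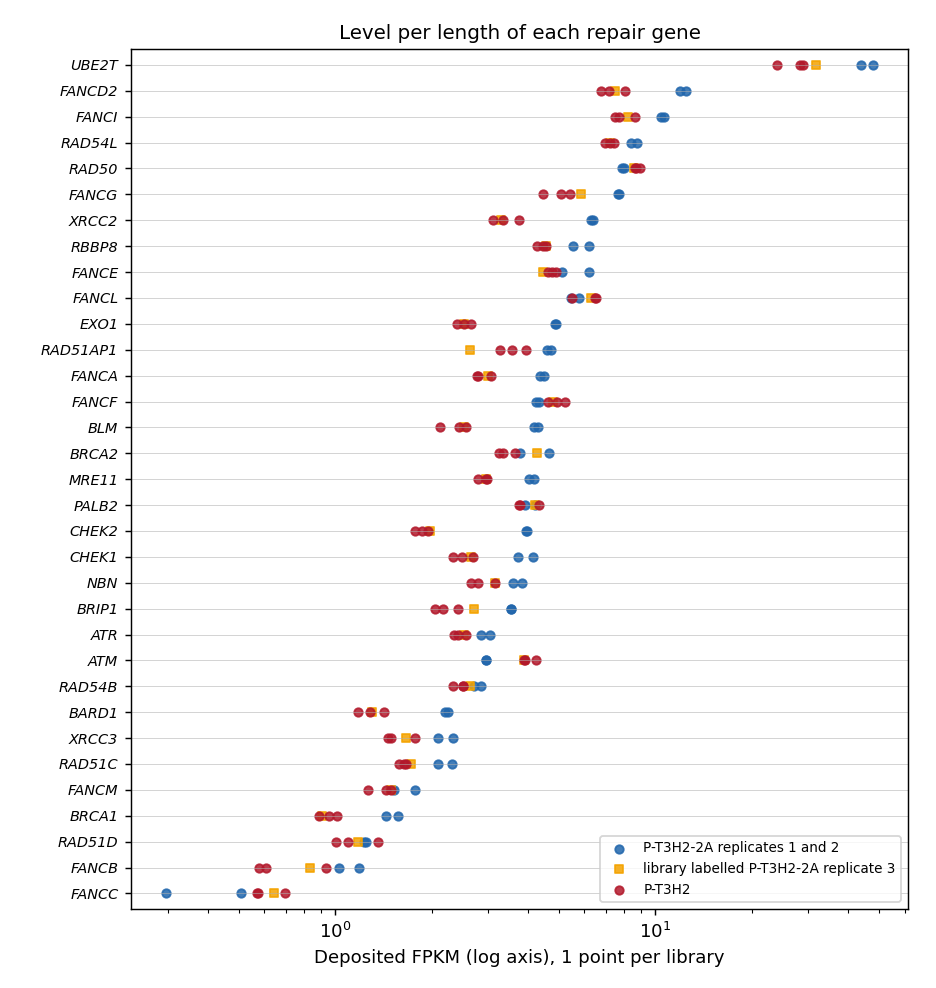
Deposited FPKM of each of the 33 genes on a log axis, 1 point per library, in order of the mean of control replicates 1 and 2 (blue circles), with P-T3H2 (red circles) and the library labelled control replicate 3 (orange squares). UBE2T lies far above the other genes in every library, and FANCC is lowest.

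Reads could be shared with neighbours for some members, since the strand setting of the counting is not given in the sources used here. Another listed gene with at least 10% of the member's mean CPM overlapped the locus of 13 members. CHEK1, at a mean of 37.2 CPM, overlaps STT3A on the same strand, which stood at 344 CPM and at -0.09 in the 5-library fit. XRCC3, at 24.2 CPM, overlaps KLC1, at 79.8 CPM, and RAD54L, at 42.8 CPM, overlaps LRRC41, at 64.1 CPM, on the other strand. FANCF, at 20.0 CPM, overlaps GAS2, at 95.2 CPM, which rose by 0.60 in the 5-library fit. BRCA1, at 27.4 CPM, overlaps AC060780.1 on the same strand, which stood at 10.5 CPM and rose by 1.23 (adjusted p = 0.000519). NBN, at 32.8 CPM, overlaps DECR1 on the other strand, at 22.1 CPM, which fell by 0.41 (adjusted p = 0.0231), beside the fall of 0.38 of NBN itself. Levels of all 13 members are uncertain to this extent: these 6, and RAD54B, MRE11, FANCA, FANCL, FANCI, ATM and CHEK2. The 5 listed pseudogene copies of CHEK2 held 0 counts in every library, and the listed copy of FANCD2 at most 3.

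Promoters are shown for members that fell in the 5-library fit, 1 for each motif that such a member holds in the 250 bases before its start: the member with the largest fall. Sequences are from RefSeq (GRCh38.p14), 5′ to 3′ on the gene's strand and ending at the base before the transcript start. Capitals mark matches to 3 motifs on either strand: the E2F motif (TTTCCCGC, TTTGGCGC, TTTCGCGC or TTTGCCGC), bound by the S-phase factors of the E2F family; the CHR motif (TTTGAA or TTCGAA), found at many late cell cycle genes; and the CCAAT box, read by NF-Y.
FANCA, minus strand, chr16:89816648-89816897: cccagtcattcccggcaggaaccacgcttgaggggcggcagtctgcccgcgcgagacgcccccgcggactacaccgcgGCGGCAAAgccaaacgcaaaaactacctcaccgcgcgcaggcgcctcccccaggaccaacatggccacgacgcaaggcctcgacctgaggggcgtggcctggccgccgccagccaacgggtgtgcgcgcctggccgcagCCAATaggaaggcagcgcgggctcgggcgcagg
UBE2T, minus strand, chr1:202341937-202342186: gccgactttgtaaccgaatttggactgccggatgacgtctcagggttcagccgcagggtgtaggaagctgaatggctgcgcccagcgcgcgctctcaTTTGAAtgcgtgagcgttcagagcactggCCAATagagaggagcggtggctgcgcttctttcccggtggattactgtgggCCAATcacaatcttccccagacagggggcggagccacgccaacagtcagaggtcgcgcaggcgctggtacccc
CHEK2, minus strand, chr22:28741821-28742070: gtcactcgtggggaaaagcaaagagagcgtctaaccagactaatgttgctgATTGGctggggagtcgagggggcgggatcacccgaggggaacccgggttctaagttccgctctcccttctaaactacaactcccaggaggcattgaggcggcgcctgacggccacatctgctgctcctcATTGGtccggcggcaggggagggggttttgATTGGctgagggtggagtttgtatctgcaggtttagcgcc

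FANCA held 1 E2F match, 172 to 165 bases before the start, and 1 CCAAT box 33 to 29 bases before it, with no overlap between them. UBE2T held 1 CHR match and 2 CCAAT boxes, and CHEK2 held 3 CCAAT boxes, each read on the other strand. RefSeq promoters were matched by symbol for 30 of the 33 members, with 40 windows because some genes have several starts. The CCAAT box was present in 47.5% of the members' windows and 32% of all 35116 windows of this length, the CHR motif in 10% and 14.3%, and the E2F motif in 5% and 2.79%. By gene, 11 of 15 members with a CCAAT box, 2 of 4 with a CHR motif and 1 of 2 with an E2F motif fell in the 5-library fit, beside 22 of 33 members. FANCC, which did not pass, held E2F and CHR matches, and ATM, which rose, held CHR and CCAAT matches. A binding motif of HNF4A (CAAAGTCCA, either strand), was present in 0 of the 40 windows and in 0.325% of all. Of the printed windows, those of FANCA and UBE2T lie partly and that of CHEK2 wholly inside the wider gene bounds of the deposited table. These matches describe letters, not bound sites.

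Of 52 further recombination and Fanconi genes, 22 fell, 5 rose and 25 did not pass in the 5-library fit, with a median log2 fold change of -0.20. These are 42.3% lower and 9.62% higher, beside 22.8% and 22.6% of all genes. DNA2, a resection nuclease, stood at 47.4, 45.4 and 35.6 CPM in the controls and at 27.9, 29.7 and 29.2 CPM with P-T3H2, without overlap, and fell by 0.68 (adjusted p = 0.000314). EME2, a partner of the MUS81 nuclease, rose by 1.67, from 10.4 and 11.9 CPM in control replicates 1 and 2 to 32.4 to 39.7 CPM, with 34.6 CPM in the library labelled control replicate 3. Of 19 further checkpoint genes 9 fell, or 47.4%, and 1 rose (median -0.26). TIPIN, a fork protection factor, and the phosphatase gene CDC25A, which lifts the brake on CDKs, fell by 1.14 and 0.75.

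The other repair lists are set beside the same shares of all genes in the 5-library fit, 22.8% lower and 22.6% higher. Of 16 end joining genes 6 fell, or 37.5%, and 1 rose (median 0.02), among them XRCC5 and XRCC6, the Ku subunits that cap broken ends, which fell by 0.41 and 0.46. Of 7 mismatch repair genes 3 fell, or 42.9%, and 0 rose (median -0.26), with MSH3, a subunit of a mismatch sensor, falling by 0.36. Of 19 nucleotide excision genes 6 fell, or 31.6%, and 3 rose, or 15.8% (median -0.17), and the TFIIH subunit genes ERCC2 and GTF2H3 fell by 0.52 and 0.62. Of 18 base excision genes 10 fell, or 55.6%, and 1 rose (median -0.31), with the break sensors PARP1 and PARP2 falling by 0.54 and 0.73. With all 6 libraries edgeR called 0 genes of these lists. At an unadjusted p under 0.05 in edgeR, 0 were higher. Lower were 10 of the further recombination, 6 checkpoint, 3 end joining, 1 mismatch, 0 nucleotide excision and 7 base excision genes. Over all genes 11.4% were lower and 6.58% higher at that threshold. DESeq2 called 1 of the further recombination genes, DNA2 (adjusted p = 0.045), beside 0.914% of all genes. It also called 1 of the further checkpoint genes, WEE1 (adjusted p = 0.000343). WEE1 stood at 56.4, 56.4 and 52.1 CPM in the controls and at 31.9, 29.1 and 37.5 CPM with P-T3H2, without overlap. In edgeR with all libraries its log2 fold change was -0.74 (adjusted p = 0.275). Differences between the lists, or from all genes, were not tested.

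Most proliferation genes were lower with P-T3H2 too. Of 32 such genes 29 fell, or 90.6%, and 0 rose in the 5-library fit, beside 22.8% and 22.6% of all genes. Their median was -0.78. With all libraries the median was -0.60 and 0 passed in edgeR or DESeq2. At an unadjusted p under 0.05 in edgeR, 26 were lower and 0 higher, beside 11.4% and 6.58% of all genes. CDK1, the mitotic kinase, and CCNA2, for cyclin A2, fell by 1.19 and 1.54. MKI67, FOXM1 and E2F1 did not pass, at -0.23, -0.33 and -0.09 (edgeR adjusted p = 0.739, 0.377 and 0.284). MKI67 varied from 83.1 to 199.4 CPM among the P-T3H2 libraries. The 32 proliferation genes summed to 6368 and 6288 CPM in control replicates 1 and 2, and to 3789 CPM in the library labelled control replicate 3. In the P-T3H2 libraries they summed to 3576, 3918 and 3456 CPM. The 33 repair genes summed to 1478, 1482 and 1188 CPM in the controls and to 1135, 1168 and 1139 CPM with P-T3H2. The part of proliferation in the repair gene levels was not tested. In bulk RNA, fewer cells in S phase and less of a transcript per cell cannot be told apart.

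**Figure D4:**
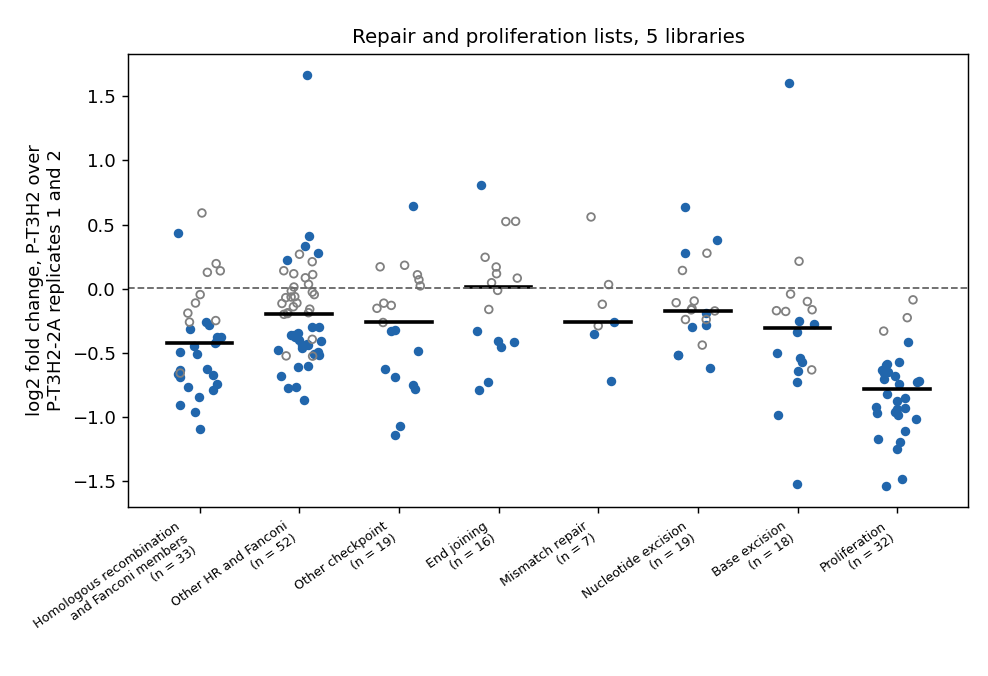
Log2 fold change of P-T3H2 over control replicates 1 and 2 in the 5-library fit for each gene (points) of the 33 members, 6 other repair and checkpoint lists and the proliferation list, filled blue where the adjusted p is under 0.05. Black bars are list medians, from -0.78 for proliferation to 0.02 for end joining, and the dashed line is the median of all genes at 0.0028.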

How the data were processed

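The authors deposited 1 table of whole-number counts and FPKM values per gene and library, per the file headers. The submitters' processing notes list the aligner HISAT2 2.0.4, the assembler StringTie 1.3.3b and edgeR, without saying which step used each. The notes name a mouse build, whereas the table lists human Ensembl genes, 50076 of its 50868 IDs in GENCODE release 29 (GRCh38). The labels name 2 library kits but not which libraries each served, and the design text speaks of 3 groups where the labels give 2. Annotation and strand setting were not given in the sources used here.

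Counts were tested with edgeR 4.0.16 in R 4.3.3: TMM scaling, filterByExpr (minimum count 10, total 15), a robust quasi-likelihood fit on group, and Benjamini-Hochberg adjustment over all genes tested at 0.05. The procedure was tested on simulated data. The standard error is the log2 fold change divided by the square root of F. CPM values are counts scaled by library total and TMM factor. All 33 members passed the filter. The members and lists were chosen with earlier results of these data known. Values in every library are given for the 2 members of smallest p per role in the 5-library fit, those higher in it, those whose P-T3H2-2A replicate 3 value lies nearer the other controls (log2 of CPM plus 0.5), and the checkpoint kinases. MRE11, RAD50, RAD51D and WEE1 were added after their values were seen. So were the 3 proliferation genes that did not pass. Of each repair and proliferation list, the 2 genes of smallest p are named, except 1 mismatch repair gene that is not reported here. Every pair of libraries differed by more than sampling noise, with a chi-square of at least 12.6 per gene. Alternatives used DESeq2 1.42.0, limma 3.58.1, other scalings and filters, FPKM, a replicate block, a GC and length trend, and leaving out each library.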

Additional observations from a re-analysis of the deposited data

How the results depend on the processing

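With all 6 libraries, the count of members called was 0 lower and 0 higher under DESeq2, limma-voom, both other scalings, both other filters, limma-trend on log2(FPKM + 1) and the replicate block. The median over members was -0.31 as reported and -0.31 under the replicate block. On log2(FPKM + 1) it was -0.23 over the 31 members tested. That is a different measure, in which the added 1 shrinks changes at low FPKM. Leaving out 1 library gave 0 to 22 members lower, 0 to 1 higher, a median of -0.42 to -0.27 and 9 to 26 members lower without overlap. The 22, the 1, the -0.42 and the 26 all came from leaving out P-T3H2-2A replicate 3. The share of all genes without overlap was not counted in these runs. RAD51D changed sign without P-T3H2 replicate 1 (0.010, adjusted p = 0.975), within a leave-one-out range of -0.22 to 0.010.

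In the 5-library fit, 22 members were lower under DESeq2, limma-voom, both other scalings and with a GC and length trend removed. There were 23 with no filter beyond 1 count and 21 under a minimum mean of 5 CPM. Of all genes, 22.8% fell and 22.6% rose in that fit as reported, or 3704 and 3686 genes. With the GC and length trend removed, 3754 genes fell and 3628 rose. BRCA2 was the call lost under that minimum (-0.29, adjusted p = 0.0525), and FANCB the one gained with no filter (adjusted p = 0.033). The replicate block gave 20 lower, 1 higher and a median of -0.45, with the calls of RAD54L (adjusted p = 0.0754) and ATR (adjusted p = 0.0572) lost. Members higher numbered 2 with library totals, with a mean of at least 5 CPM (RAD50 joining ATM in both) and with the GC and length trend removed (FANCF joining). Leaving out 1 more library gave 18 to 22 lower, 1 to 2 higher and a median of -0.45 to -0.42, where a lone control library is taken to be as variable as P-T3H2. Of 23 members called, 17 passed under every alternative run. PALB2 changed sign without P-T3H2-2A replicate 1 (0.0093, adjusted p = 0.962), within a range of -0.11 to 0.0093. The cause of these changes was not tested. How many of all genes kept their call under every run was not counted, so 17 of 23 cannot be read as particular to the members. Deviations of same-numbered libraries correlated at -0.0766, 0.184 and 0.128, and not every library correlated best with its own number. Control replicates 1 and 2 gave near-equal values, such as 0.159 and 0.184 with P-T3H2 replicate 2, since replicate 3 stood apart from both. The correlations therefore cannot show or exclude pairs, and the numbers were not taken as pairs. Depth limits FANCB and FANCC most, with 49 and 61 counts in their lowest library.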
